A study of Rattus norvegicus with 172 samples.

Results

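Self-sustaining status epilepticus (SSSE) is a state in which seizures go on by themselves after the stimulation that started them has ended. RNA of dentate granule cells taken on day 1 after SSSE was compared with that of control rats of the same laboratory. The day 1 group was chosen by the sample titles and held 6 of the 164 rats of the series, measured on 7 of its 172 arrays, because rat 6 was hybridised a second time and its arrays were averaged. The controls were 5 rats. All were male Sprague-Dawley rats that weighed 175 to 250 g, and their granule cells were cut out by laser from hippocampal sections. The labels name no genetic change for any group. How SSSE was started and ended, and what the control rats received, is not given in the sources used here. The same laboratory supplied 5 rats at day 3 and 4 rats at day 10. For comparison, 12 day 1 and 12 control rats were taken from each of the kainate and pilocarpine models, each of which was run in laboratories A and B. Kainate, a glutamate receptor agonist, was given at 5 mg/kg every hour. In laboratory A the seizures ended by themselves after 6 to 8 h, while in laboratory B the dosing began with 7.5 mg/kg and the seizures were halted after 90 min. Pilocarpine, a cholinergic agonist, was given at 300 to 350 mg/kg, and status epilepticus was stopped after 90 min. SSSE came from 1 laboratory, so model and laboratory cannot be told apart.

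Granule cells are the principal neurons of the dentate gyrus, and their axons, the mossy fibres, carry cortical input on to the hilus and to area CA3. They are normally hard to excite, and tonic inhibition, calcium buffering and potassium currents contribute to this. Intense seizures are known to switch on immediate early genes within minutes to hours and to change the synthesis of neuropeptides over days, with neuropeptide Y and thyrotropin-releasing hormone among the best-known examples in this cell type.

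Several arrays need mention before the results. Rat 3 of the day 1 group has a title that says day 1, while its source name and its harvest time label say control. It was kept at day 1, which gives the group sizes that the submitters' design text states. The size of the response was scored in each rat as the slope of its change on the mean of the kainate and pilocarpine day 1 changes, over 2680 genes that passed in one direction in both of those models. SSSE rats did not set these changes, but they entered the estimate of spread and the signal filter behind the choice of genes. Rats 1 to 6 of the day 1 group scored 1.00, 0.751, 0.565, 0.247, 0.879 and 0.171, while the 5 controls lay between -0.0291 and 0.0318. Rat 3 thus lay within the day 1 group and above every control, and rats 4 and 6 lay closest to the controls. The kainate day 1 rats scored 0.805 to 1.23 and the pilocarpine day 1 rats 0.33 to 1.23, but these rats had set the changes. Both arrays of rat 6 correlated at 0.996 across the tested genes.

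**Figure D1:**
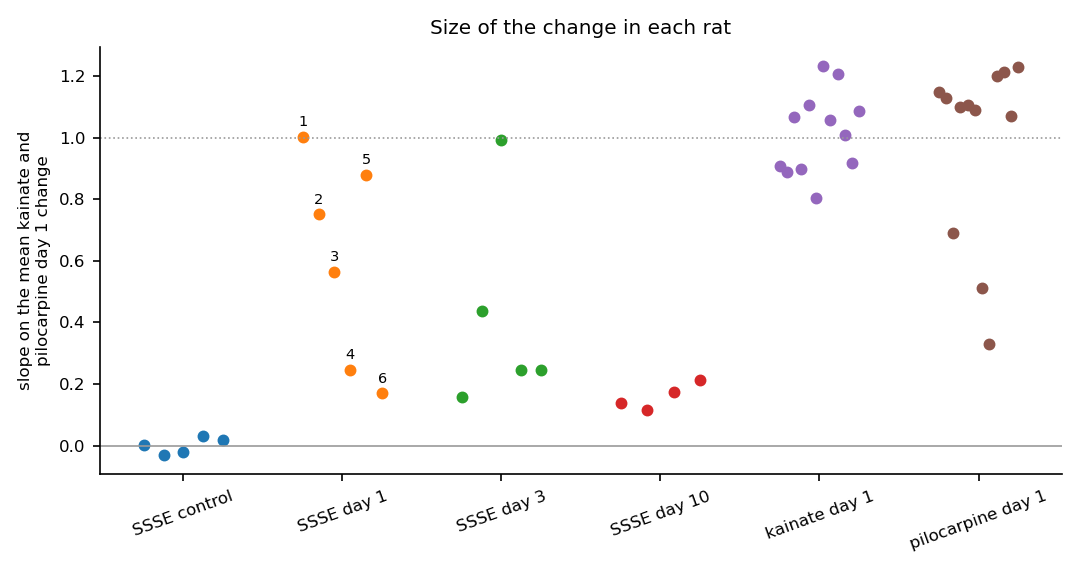
Slope of each rat's change on the mean day 1 change of the kainate and pilocarpine models (vertical axis, no unit) for 6 groups of rats (horizontal axis); each point is 1 rat, numbers are the rat numbers of SSSE day 1, and the dotted line marks a slope of 1. The 6 day 1 rats spread from 0.171 to 1.00, and all 5 SSSE controls lie near 0.

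On the first principal component of the 20 SSSE rats, which held 34.9% of the variance, day 1 rats 1, 2, 3 and 5 lay at 32.3, 25.2, 17.9 and 41.8. Rat 4 lay at 0.5, rat 6 at -9.3 and the controls at -20 to -13.7. The mean over arrays of the median signal was 30.6 at day 1 and 31.8 in the controls (two-sided exact permutation test over 462 splits, p = 0.294, adjusted over 4 array measures 0.323). The ratio of actin probes at the transcript's 3' end to those at its 5' end, a measure of RNA quality on the log2 scale, was 3.15 at day 1 and 3.64 in the controls, with control rat 5 at 4.52 (two-sided exact permutation p = 0.013, adjusted 0.039). The same ratio for Gapdh was 1.07 and 1.20 (two-sided exact permutation p = 0.323). Rats of the day 1 group resembled each other less than the controls did. The mean of the median correlation within the group was 0.968 against 0.983 (two-sided permutation p = 0.0195, adjusted 0.039). Rats of a group share their pairs, and the correlations were not recomputed for each split. This p is therefore not exact and only describes the gap.

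At day 1 after SSSE 1349 of 10759 genes (12.5%) passed an adjusted p of 0.05 against control. Of these, 593 were higher (5.51%) and 756 lower (7.03%). Changes of at least 2-fold were found in 69 higher genes (0.641%) and 116 lower genes (1.08%). In 317 genes (2.95%) all 6 day 1 rats lay above all 5 controls, and in 355 (3.3%) all 6 lay below, together 672 (6.25%). Differences are of log2(signal + 16), which understates the change of weakly expressed genes, and errors are standard errors. The labels do not say whether rats were housed or treated together, so p-values measure only the spread between rats. That spread is 1 value per gene, pooled over all 20 SSSE rats and not over the 11 compared alone. The count was 42 with rat 3 counted as a control, 979 without rat 3, 2104 without rat 6, 783 without rat 2 and 894 without control rat 2. It was 763 with the 11 rats fitted alone, 2402 with arrays weighted by quality and 400 with the actin ratio as a covariate. With rat 3 counted as a control, 41 of the 42 genes were among the 1349 with the same direction. Of 117 named genes 106 passed, all 106 kept their direction with rat 3 as a control, and 13 of them still passed.

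**Figure D2:**
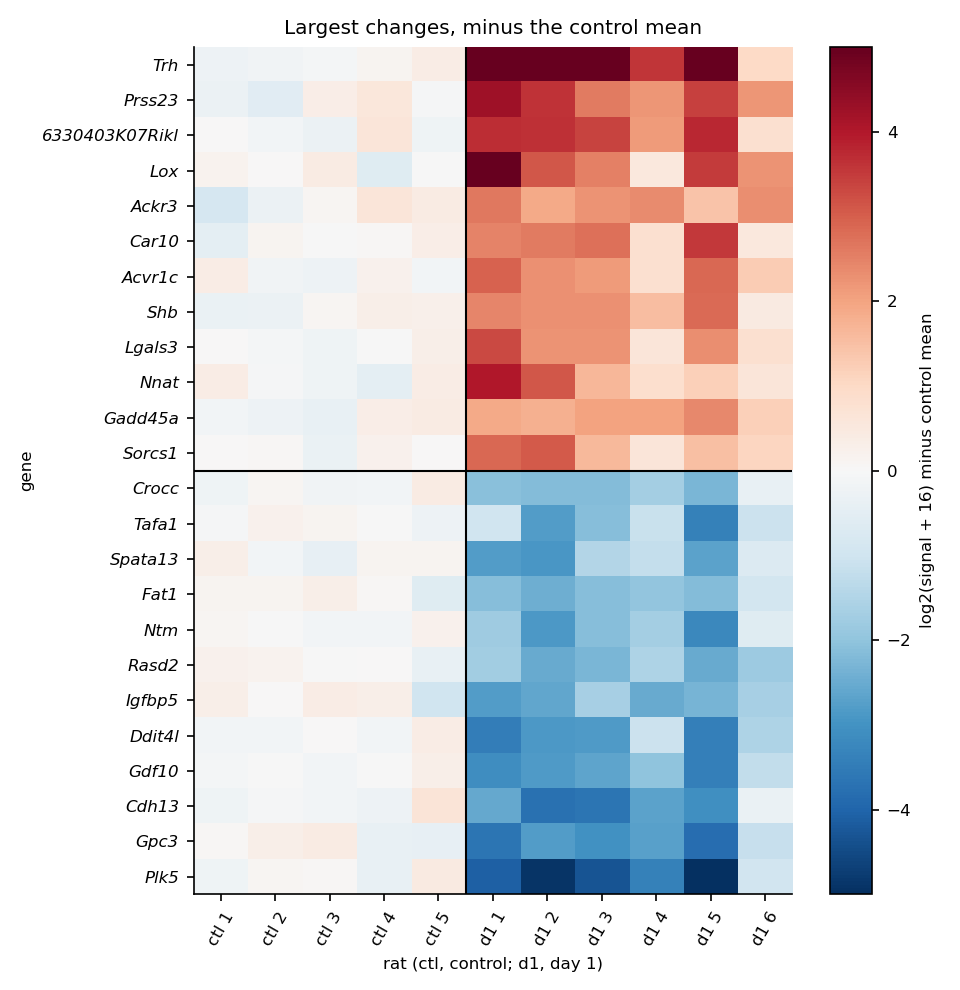
Difference of log2(signal + 16) from the mean of the 5 controls (colour) for the 12 largest rises and 12 largest falls (vertical axis) in 5 control and 6 day 1 rats (horizontal axis). All 6 day 1 rats lie outside the control range for each gene because that was part of the rule that chose them; rat 6 is the palest day 1 rat for Trh and Plk5, and values beyond 5 in either direction take the end colour.

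The largest rise was that of Trh, the precursor of thyrotropin-releasing hormone. Its signal was 23.8, 25.4, 27.5, 35.8 and 45.5 in control rats 1 to 5, and ranged from 78.4 to 2820.2 at day 1, with a median of 1547. The groups did not overlap, and rat 6 was the lowest of the day 1 rats while the others were at 547 or more. The difference was 4.34 ± 0.70 on the log2 scale, or 20.2-fold (adjusted p = 0.00111), and 5.01 without rat 6. Npy, the precursor of neuropeptide Y, a peptide that dampens transmitter release, stood at 70.2, 48.4, 71.6, 131 and 60.4 in the controls and at 69.9 to 1889 at day 1, with a median of 1263. Rats 1, 2, 3 and 5 were at 1240.0 or more, rat 4 was just above the highest control, and rat 6 lay within the control range. Npy rose by 2.85 ± 0.76 (adjusted p = 0.0204). With rat 3 counted as a control the adjusted p was 0.0807 for Trh and 0.21 for Npy.

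The 250 bases before the RefSeq start (build GRCr8) are shown for Trh and Npy, the peptide genes that rose most, and for Fat1 and Tafa1, which belong to the 12 largest falls and whose windows hold a CRE-like or AP-1 motif. RefSeq's promoter table held 18 of the 25 genes made up of the 12 largest rises, the 12 largest falls and Npy. Capitals mark matches on either strand to the CRE-like motif TGACNTCA or to the AP-1 motif TGANTCA, bound by Fos and Jun. The CRE-like motif is a loosened form of the CRE, the site of factors of the CREB family. Binding to any match was not tested. The CRE with any base at the place of its N was chosen after the Trh window had been read. The window of Trh lies at chr4:126301763-126302012 (minus strand), that of Npy at chr4:80211861-80212110 (plus strand), that of Fat1 at chr16:54028610-54028859 (minus strand) and that of Tafa1 at chr4:130294409-130294658 (plus strand).
Trh: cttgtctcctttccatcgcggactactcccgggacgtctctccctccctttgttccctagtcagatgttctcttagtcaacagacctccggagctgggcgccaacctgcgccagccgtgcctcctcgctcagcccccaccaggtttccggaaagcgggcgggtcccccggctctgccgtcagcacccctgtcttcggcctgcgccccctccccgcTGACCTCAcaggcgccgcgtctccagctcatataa
Npy: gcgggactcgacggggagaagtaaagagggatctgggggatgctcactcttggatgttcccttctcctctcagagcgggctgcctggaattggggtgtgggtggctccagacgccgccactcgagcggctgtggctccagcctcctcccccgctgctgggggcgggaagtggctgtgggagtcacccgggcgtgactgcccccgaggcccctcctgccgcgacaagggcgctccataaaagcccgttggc
Fat1: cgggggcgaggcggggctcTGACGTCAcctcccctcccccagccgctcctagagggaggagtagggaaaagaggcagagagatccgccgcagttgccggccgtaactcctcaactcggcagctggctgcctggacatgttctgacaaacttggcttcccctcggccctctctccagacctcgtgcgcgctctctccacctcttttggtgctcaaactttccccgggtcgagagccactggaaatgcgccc
Tafa1: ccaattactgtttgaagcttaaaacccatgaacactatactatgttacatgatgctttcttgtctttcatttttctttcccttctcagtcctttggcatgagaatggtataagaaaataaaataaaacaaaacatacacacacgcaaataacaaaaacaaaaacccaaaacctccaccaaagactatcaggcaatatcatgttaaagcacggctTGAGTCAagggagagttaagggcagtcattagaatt
The match begins 35 bases before the start in Trh, 231 in Fat1 and 36 in Tafa1, and the Npy window holds neither motif. The letters TATAAA of the TATA box were searched too, on both strands, and none of these 4 windows holds them, while those of Ackr3 (54 bases before the start) and Ddit4l (31 bases) do. The CRE-like motif was found in 5 of 51 windows of genes that rose at least 2-fold (9.8%, in Gadl1, Inhba, Rem2, Sox11 and Trh) and in 1 of 89 of those that fell (1.12%), against 6.24% of the 8971 windows of all tested genes. The AP-1 motif was in 3.92% of the windows of the risen genes, in 3.37% of those of the fallen ones and in 4.14% of all tested, and TATAAA in 7.84%, 7.87% and 6.29%. Trh counts among the 5 risen genes although the CRE-like motif was chosen after its window had been read. These shares describe letters and were not tested.

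The gene lists here and below, and their members, were chosen with earlier results of these data known. Their shares beside those of all genes therefore describe the lists and are not tests. Of 25 tested genes for neuropeptides and their processing, 5 were higher and 2 lower (28% passed, against 12.5% of all genes). The median difference was -0.04 against 0.00034 over all tested genes. Besides Trh and Npy, the risen members were Chga and Chgb, granins of the dense-core vesicle, and Pcsk2, a convertase that cuts peptide precursors. Chga had signals of 495, 469, 521, 656 and 571 in the controls and of 518 to 1908 at day 1, with a median of 1451. Rats 1, 2, 3 and 5 were above all controls, while rats 4 and 6 were within their range (1.03 ± 0.27, adjusted p = 0.0205). The members that fell were Nmb, the neuromedin B precursor, and Pdyn, the precursor of the dynorphins, which are opioid peptides of granule cells. Pdyn had signals of 1824, 1320.0, 1195, 1032 and 1526 in the controls and of 493 to 1199 at day 1, with a median of 786. The groups overlapped through rat 6 (-0.81 ± 0.24, adjusted p = 0.0353). Without rat 3, 5 members rose and 0 fell.

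Genes of the matrix and of proteolysis held some of the largest changes in both directions, but their list, like the others, was chosen with earlier results of these data known. Of 43 tested, 5 rose (Lox, Prss23, Mmp9, Plat and Spp1) and 3 fell (Gpc3, Sdc2 and Col25a1), with a median of 0.07. Together 18.6% passed, against 12.5% of all genes. Prss23, a serine protease, had signals of 67.6, 52.5, 110.2, 136 and 82.1 in the controls and of 456 to 1912 at day 1, with a median of 837. No day 1 rat, rats 4 and 6 included, was near the controls. The rise was 3.05 ± 0.37 (adjusted p = 8.3e-05), and it also passed with rat 3 counted as a control (adjusted p = 0.0257). Lox, the lysyl oxidase that cross-links collagen and elastin, stood at 47.1, 40.6, 56.5, 20 and 38.6 in the controls and at 63.8 to 1840.3 at day 1, with a median of 379.9. The groups did not overlap, although rat 4 lay close to the highest control, and rat 1 was the highest (2.83 ± 0.58, adjusted p = 0.00515). Mmp9, matrix metalloproteinase 9, stood at 13.8, 16.3, 5.7, 10.6 and 15.3 in the controls and at 35.7 to 128 at day 1, with a median of 74.4. Rat 6 was the highest of the day 1 rats for this gene (1.67 ± 0.21, adjusted p = 0.000176). Gpc3, a glypican, which is a cell surface proteoglycan, stood at 307, 363, 393, 224 and 217 in the controls and at 5.9 to 123 at day 1, with a median of 25.1. No day 1 rat reached the lowest control (-2.86 ± 0.42, adjusted p = 0.000579). Timp1, a tissue inhibitor of metalloproteinases named after its values were seen, had a difference of 2.06 ± 0.75 and did not pass (adjusted p = 0.0763). The number of risen members was 3 without rat 3 and 10 without rat 6.

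Other large rises had several roles. Ackr3, an atypical receptor that binds the chemokine Cxcl12, had signals of 51.7, 83.2, 114, 166 and 146 in the controls and of 307 to 738 at day 1, with a median of 568. Rats 4 and 6 were the second and the third highest for this gene (2.15 ± 0.30, adjusted p = 0.000386). Cxcl12 itself was at 1354 to 1949 in the controls and at 161 to 1497 at day 1, with rat 6 inside the control range, and fell by 1.61 ± 0.50 (adjusted p = 0.0409). Of the 24 tested cytokine, chemokine and acute-phase genes, Ackr3 and A2m rose and Cxcl12 fell, which is 12.5%, the same share as over all genes. Gadd45a, a stress gene of growth arrest and DNA repair, had signals of 31.6, 27.6, 24.9, 49.7 and 53.5 in the controls and of 103 to 258 at day 1, with a median of 186. All 6 day 1 rats lay above every control (1.88 ± 0.21, adjusted p = 6.65e-05). Acvr1c, a type I receptor of the TGF-beta family, rose by 2.04 ± 0.33 (adjusted p = 0.00111). Inhba, the subunit of activin A, was at 148 to 1342 at day 1, highest in rat 1, against 81.6 to 136 in the controls (1.61 ± 0.52, adjusted p = 0.0483). Lgals3, which encodes galectin-3, was at 3.5 to 11.9 in the controls and at 18.7 to 209 at day 1 (difference 1.92). The rest of the 12 largest rises were those of 6330403K07Rikl (2.91), Car10, a protein related to carbonic anhydrases (2.12), Shb, an SH2 adaptor (1.97), Nnat, neuronatin (1.91), and Sorcs1, a sorting receptor (1.79).

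The largest fall was that of Plk5, a polo-like kinase that is also on the list of granule cell markers. Its signals were 558, 701, 675, 500.3 and 902 in the controls and 2.3 to 328 at day 1, with a median of 20.4. Rats 1 to 5 were at 48.2 or less, and rat 6 was still below every control. The difference was -3.81 ± 0.56 on the log2 scale, or 14.0-fold (adjusted p = 0.000584). Gdf10, a secreted ligand of the BMP family, had signals of 188, 199.5, 187, 201 and 256 in the controls and of 4.4 to 78.4 at day 1, with a median of 17.0. The day 1 rats were all far below the controls (-2.55 ± 0.38, adjusted p = 0.000689). Igfbp5, a binding protein of insulin-like growth factors, had signals of 211, 168, 220.4, 209.5 and 76.7 in the controls and of 10.1 to 42.6 at day 1, with a median of 18.1. Control rat 5 was the lowest control and was still above every day 1 rat (-2.27 ± 0.27, adjusted p = 7.56e-05). Igfbp5 also passed with rat 3 counted as a control (adjusted p = 0.0257). In the activin, BMP, TGF-beta and IGF list 2 of 35 tested genes rose (Inhba and Acvr1c) and 6 fell (Gdf10, Bmp4, Tgfb2, Tgfbr1, Nog and Igfbp5), with a median of -0.11. Together 22.9% of this list passed, against 12.5% of all genes. Ddit4l, an inhibitor of mTOR signalling, was at 528 to 766 in the controls and at 39.2 to 272 at day 1 (-2.53 ± 0.45, adjusted p = 0.00205). It was 1 of 4 genes that fell among 21 of the unfolded protein and amino acid stress response, where none rose. The share that fell was 19%, against 7.03% of all genes. Further large falls were those of Rasd2, a small GTPase (-2.07), Tafa1, a secreted chemokine-like protein (-1.92), and Crocc, rootletin (-1.80).

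**Figure D3:**
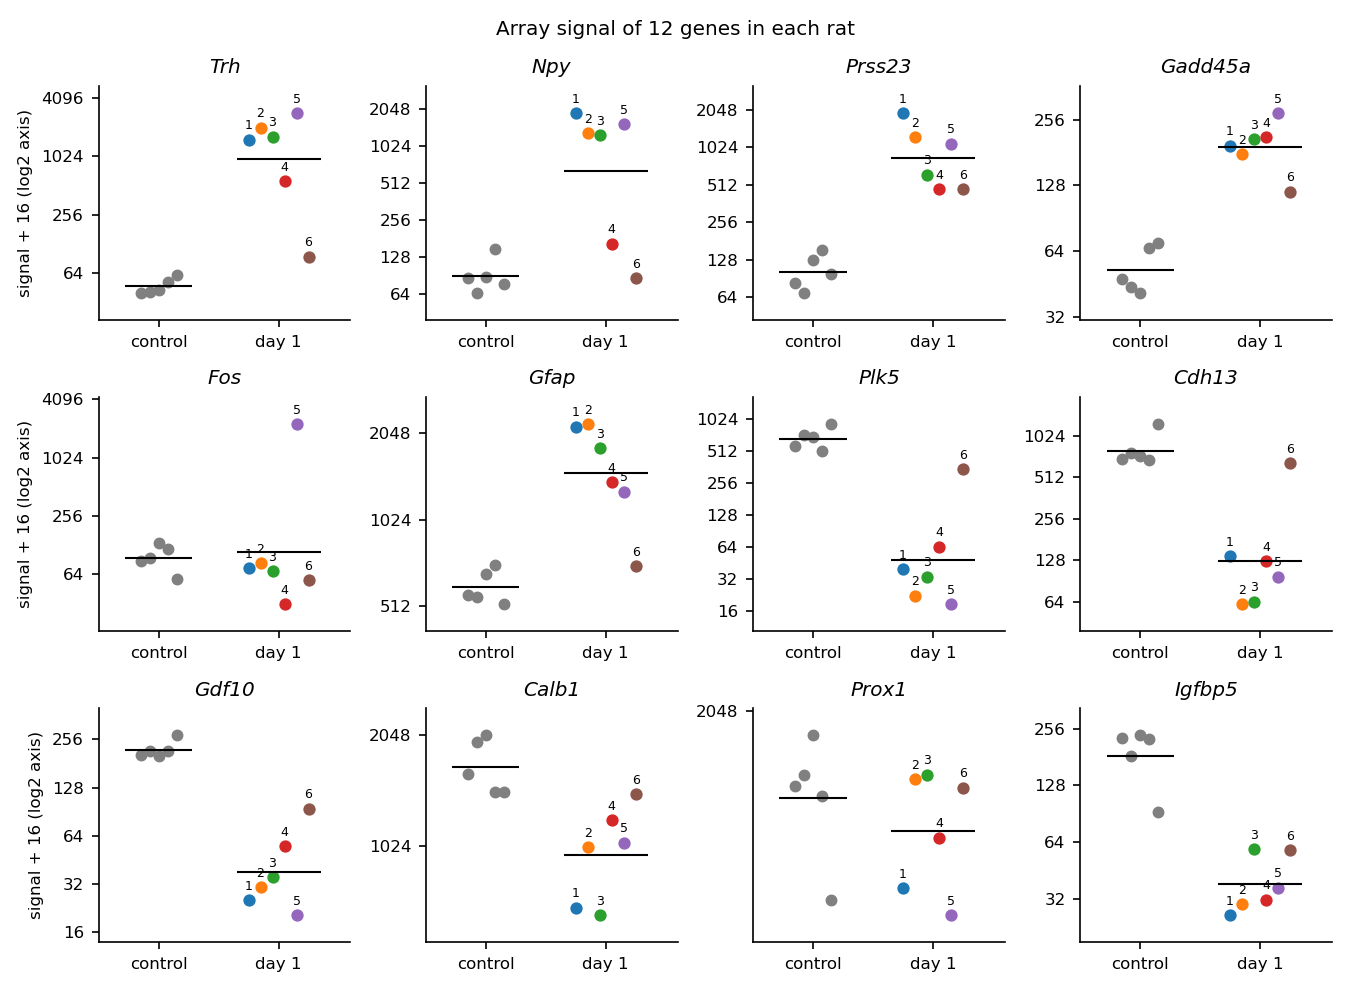
Signal plus 16 on log2 axes for 12 genes in 5 control and 6 day 1 rats (day 1 points carry their rat numbers); lines are the means of the log2 values, and each panel has its own scale. Rat 6 lies nearest to the controls for Trh, Plk5 and Cdh13 but apart from them for Prss23, and Fos is high in rat 5 alone, at 2253 against 67.6 or less in the other day 1 rats before 16 is added.

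Cell adhesion and axon guidance genes fell more often than they rose, with 10 of 48 tested lower, 1 higher (Nrxn3) and a median of -0.19. Together 22.9% passed, against 12.5% of all genes. The lower ones were Cdh10, Cdh12, Cdh13, Sema3e, Sema4d, Plxnc1, Robo2, Slit2, Epha7 and Efnb3. Cdh13, a cadherin held in the membrane by a lipid anchor, had signals of 679, 755, 715, 666 and 1235 in the controls and of 45.0 to 630.4 at day 1, with a median of 95.5. Rats 1 to 5 were at 120.3 or less, while rat 6 was just under the lowest control (-2.66 ± 0.48, adjusted p = 0.00212). Cdh12, another cadherin, fell by 1.31 ± 0.27 (adjusted p = 0.00565), and Efnb3, an ephrin, by 1.24 ± 0.37 (adjusted p = 0.0337). Outside the list, Fat1, a giant atypical cadherin, had signals of 662, 651, 741, 615 and 382 in the controls and of 97.5 to 309 at day 1, with a median of 123. The ranges did not meet, and rat 6 was again the highest day 1 rat (-1.96 ± 0.25, adjusted p = 0.000176). Ntm, the adhesion protein neurotrimin, fell by 2.05 ± 0.35 (adjusted p = 0.00162). The number of lower members was 8 without rat 3, 14 without rat 6 and 7 without rat 5.

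Among genes that set excitability, those of calcium handling changed in 1 direction, with none higher and a median of -0.33. Of 30 tested, 8 were lower (26.7%, against 7.03% of all genes). They were Calb1, Pvalb, Ryr1, Ryr3, Itpr1, Calml4, Hpcal4 and Ncald. Calb1, the calcium buffer calbindin, had signals of 1596, 1953, 2037, 1422 and 1421 in the controls and of 645 to 1401 at day 1, with a median of 1012. The day 1 rats were all lower than the controls, rat 6 by a small margin (-0.80 ± 0.22, adjusted p = 0.0243). Ryr1, a calcium release channel, had signals of 131, 133, 118, 162 and 297 in the controls and of 21.4 to 59.3 at day 1, with a median of 44.1. No day 1 rat overlapped the controls, and Ryr1 passed with rat 3 counted as a control (-1.63 ± 0.22, adjusted p = 0.000278, and 0.0286 with rat 3 as a control). Calml4, a calmodulin-like protein, fell by 1.65 ± 0.47 (adjusted p = 0.0282). Without rat 3 the list had 3 lower members and without rat 6 it had 10.

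Of 34 tested potassium channel genes 6 were lower and 1 higher (Kcnmb4), with a median of -0.04. Together 20.6% passed, against 12.5% of all genes. Kcnip2, a partner of A-type channels, was at 1161 to 1510.0 in the controls and at 360.1 to 1029 at day 1 (-1.10 ± 0.23, adjusted p = 0.00658). Kcnq5, an M-current subunit, fell by 0.75 ± 0.21 (adjusted p = 0.0258), and Kcns3, a modulatory subunit, by 0.75 ± 0.20 (adjusted p = 0.021). Of 20 sodium, calcium and HCN channel genes, Cacna1g, a T-type calcium channel, and Hcn2 rose, and Scn4b, a sodium channel beta subunit, fell. That is 15%, near the 12.5% of all genes. Scn4b had signals of 186, 177, 159, 276 and 202 in the controls and of 22.1 to 161 at day 1, with a median of 26.3. Rats 1 to 5 lay at 30.3 or less and rat 6 within the control range (-2.00 ± 0.56, adjusted p = 0.0261).

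Gabrd encodes the delta subunit of extrasynaptic GABA-A receptors, which carry tonic inhibition of granule cells. Its signals were 626, 656, 743, 618 and 632 in the controls and 107 to 585 at day 1, with a median of 230.0. All day 1 rats were below all controls, with rat 6 the highest (-1.30 ± 0.28, adjusted p = 0.00663). Gabrb1, another receptor subunit, rose by 0.34 ± 0.10 (adjusted p = 0.0305). In the list of 14 GABA genes 2 rose and 2 fell (28.6% passed, against 12.5% of all genes). Without rat 5, 0 rose and 1 fell, as with the 11 rats fitted alone. Of 19 glutamate receptor genes Gria3 and Grm8 rose and Grm3 and Cacng3 fell (21.1% passed, against 12.5% of all genes). Grm3, a metabotropic receptor, fell by 1.33 ± 0.24 (adjusted p = 0.00212), and Gria3, an AMPA receptor subunit, rose by 0.48 ± 0.11 (adjusted p = 0.0121) with every day 1 rat above the controls. In the sodium pump list 3 of 9 tested genes fell (33.3%, against 7.03% of all genes) and none rose. They were Atp1b2, a beta subunit (-1.30 ± 0.27, adjusted p = 0.00581), and the pump regulators Fxyd6 (-0.88 ± 0.13, adjusted p = 0.000759) and Fxyd7 (-1.16 ± 0.23, adjusted p = 0.00422).

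Immediate early and activity-regulated genes were split. Of 40 tested 7 rose (Dusp14, Klf2, Klf10, Sik1, Ptgs2, Inhba and Rgs2), which is 17.5%, against 5.51% of all genes. None fell, and the median was 0.43. Ptgs2, the inducible cyclooxygenase, had signals of 825, 711, 780.3, 948 and 783 in the controls and of 1197 to 3785 at day 1, with a median of 2081. No day 1 rat overlapped the controls (1.40 ± 0.26, adjusted p = 0.00249). Klf10, a zinc finger factor, rose by 1.15 ± 0.26 (adjusted p = 0.0087). The classical members Fos and Arc did not pass. Fos, a subunit of AP-1, had signals of 71.9, 77.6, 118, 99.5 and 41.4 in the controls and of 58.1, 67.6, 53.2, 15.4, 2253 and 40.0 in day 1 rats 1 to 6. Arc, a protein of the synapse, had 92.0, 118, 126, 102 and 97.6 in the controls and 67.1, 33.7, 50.8, 64.3, 2753 and 71.3 in the day 1 rats. Rat 5 alone was high for both, and for Arc the other 5 rats were below every control. Bdnf, a neurotrophin, was also highest in rat 5, at 2021 against 522 to 1120.3 in the other day 1 rats and 465 to 839 in the controls. The differences were 0.22 ± 0.75 for Fos (adjusted p = 0.874), 0.11 ± 0.80 for Arc (adjusted p = 0.942) and 0.27 ± 0.29 for Bdnf (adjusted p = 0.563). Without rat 5 they were -0.66 for Fos and -0.77 for Arc. Without rat 6, 11 members of the list rose, and without rat 5, 7 rose and 1 fell. Leaving out single rats, the number that rose was 3 to 11 and the list median 0.0851 to 0.57. With rat 3 counted as a control 1 rose.

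Of 23 tested heat shock proteins and chaperones 5 rose (Hspa2, Dnajb1, Dnajb9, Dnaja1 and Bag3) and none fell. The share that rose was 21.7%, against 5.51% of all genes, and 2 rose without rat 3. Bag3, a partner of heat shock proteins, stood at 22.5 to 44.6 in the controls and at 30.1 to 344 at day 1, with rat 6 within the control range (1.52 ± 0.47, adjusted p = 0.0404). The median for proteasome subunits was 0.23, and the rises were small, such as 0.47 ± 0.11 for Psmb3 (adjusted p = 0.0102). They rose in 6 of 36 cases (16.7%, against 5.51% of all genes) and fell in none. The number was 2 without rat 3 and 16 without rat 6. Oxidative phosphorylation genes rose in 4 of 74 cases, 5.41% against the 5.51% of all genes that rose, and 1 of them, Cox6c-ps1, is a pseudogene. By limma no ribosomal protein of 45 and no cholesterol synthesis gene of 17 passed, and 7 ribosomal proteins rose without rat 6. Growth cone and young neuron genes rose in 6 of 28 cases (Dcx, Dclk1, Tubb6, Sox11, Neurod2 and Fscn1) and fell in 1 (Neurod1). Together 25% passed, against 12.5% of all genes. Sox11, a transcription factor of young neurons, was at 2.5 to 7.0 in the controls and at 8.8 to 89.3 at day 1. Neurod2, a neuronal transcription factor, was at 89.3 to 363 and at 414 to 663. For both genes all day 1 rats were above all controls.

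**Figure D4:**
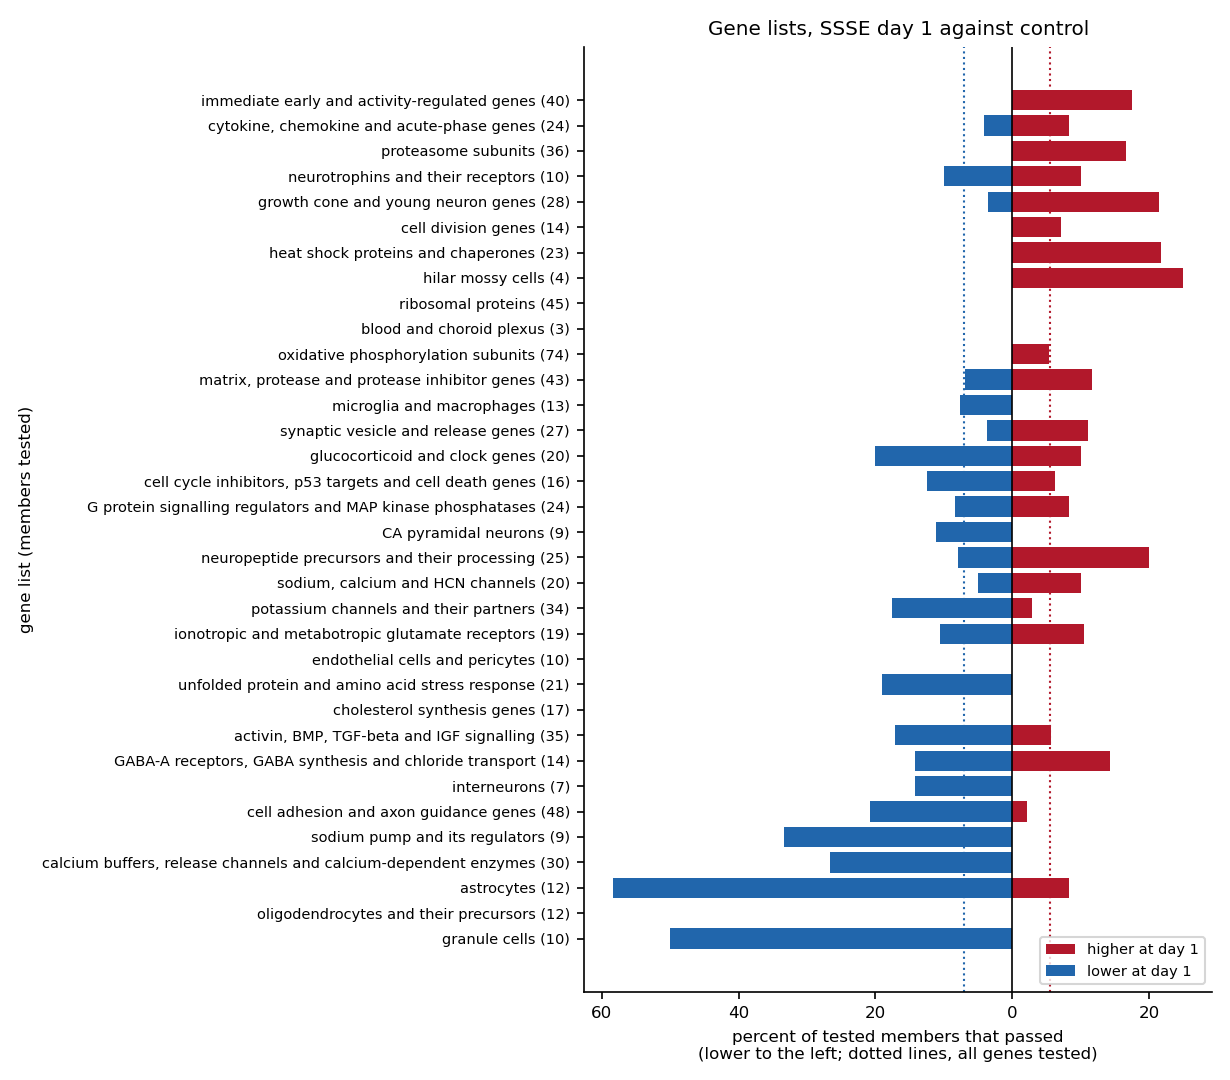
Percent of the tested members of each gene list (vertical axis, members tested in brackets) that passed at an adjusted p of 0.05, higher at day 1 to the right and lower to the left (horizontal axis); dotted lines are the shares of all 10759 genes, 5.51% higher and 7.03% lower. The lists of granule cell and astrocyte markers reach far to the left, with 5 of 10 and 7 of 12 members lower. All lists were chosen with earlier results of these data known.

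Cell type markers were checked over whole lists. All 10 tested granule cell markers had differences below 0, with a median of -0.79. Of these, 5 fell (Calb1, C1ql3, Plk5, Trpc6 and Pdyn), which is 50%, against 7.03% of all genes. The number that fell was 3 without rat 3 and 0 with rat 3 counted as a control. The summed signal of the list was 11254 to 14029 in the controls and 7149 to 11100 at day 1. Prox1, the transcription factor that defines granule cells, had signals of 1755, 1791, 1939, 1718 and 1401 in the controls and of 1359 to 1793 at day 1, with a median of 1666. These ranges overlapped (-0.09 ± 0.12, adjusted p = 0.656). In bulk samples such as these, fewer cells of a type and less RNA per cell cannot be told apart. Of 12 tested astrocyte markers 7 fell (Gja1, Gjb6, Aldh1l1, Aldoc, Ntsr2, S100b and Acsbg1) and Gfap rose. Together 66.7% passed, against 12.5% of all genes. The number that fell was 3 to 7 without single rats and 0 with rat 3 counted as a control. Gfap, a filament protein of astrocytes, had signals of 543, 534, 649, 698 and 503 in the controls and of 690.1 to 2189.6 at day 1, with a median of 1584. Rat 6 was the day 1 rat within the control range (1.32 ± 0.34, adjusted p = 0.0176). The astrocyte sum was 4721 to 7031 in the controls and 3906 to 6082 at day 1. Of 13 microglial markers P2ry12, a receptor of resting microglia, fell (7.69% passed, against 12.5% of all genes). The sum was 487 to 850 in the controls and 382 to 1278 at day 1. None of the 12 oligodendrocyte markers passed. Their median was -0.66, and their sum was 1270 to 8436 in the controls, highest in control rat 4, and 828 to 1740 at day 1. The lists for endothelial cells and for blood and choroid plexus held no gene that passed. Those for CA pyramidal neurons, interneurons and mossy cells held 1 each (Neurod6 and Pvalb lower, Ociad2 higher). That is 11.1% of 9, 14.3% of 7 and 25% of 4 tested members, against 12.5% of all genes. The part of other cell types in the changes described was not tested.

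The changes of SSSE day 1 were set beside those of the other models, which have controls of their own. Across the 10759 genes the differences correlated at 0.786 with kainate and 0.721 with pilocarpine, which describes genes that are not independent replicates. The slope on the kainate differences was 0.579. A test of the difference between the models found 5 genes for kainate (0.0465%), 1 of them higher in SSSE (0.00929%), and 71 for pilocarpine (0.66%). Plk5 differed from control by -3.81 in SSSE, -3.81 in kainate and -3.38 in pilocarpine. Trh differed by 4.34, 4.94 and 4.25, and Lox by 2.83, 4.93 and 4.81. Ackr3 differed by 2.15 in SSSE, by 0.78 in kainate and by 0.56 in pilocarpine, a gap that did not pass in either test (adjusted p = 0.385 and 0.168). Prox1 differed by -0.09 in SSSE and by -0.74 in both other models, and the gaps did not pass (adjusted p = 0.276 and 0.169).

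**Figure D5:**
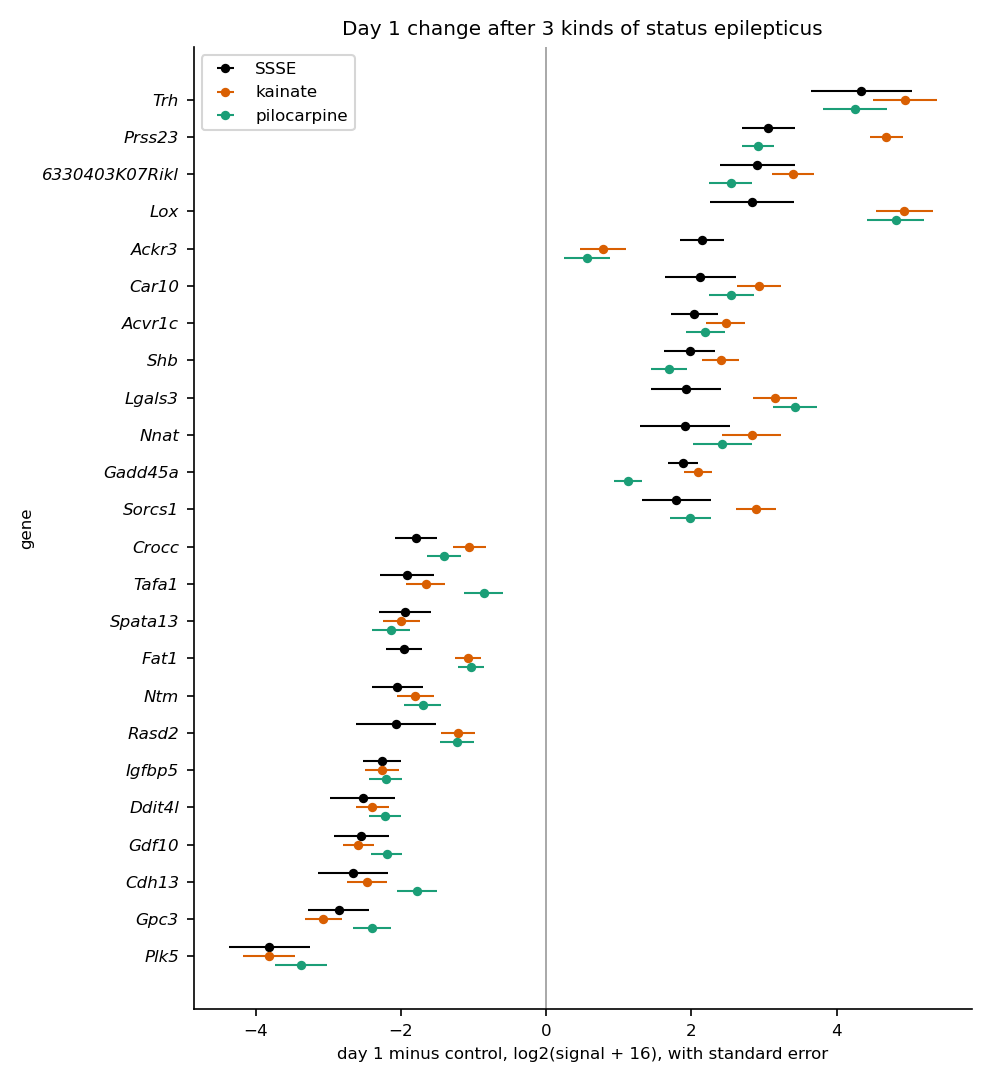
Day 1 minus control on the log2(signal + 16) scale (horizontal axis) for the 24 genes with the largest SSSE changes (vertical axis), in SSSE (black), kainate (orange) and pilocarpine (green); bars are standard errors. Plk5 lies at -3.81 in SSSE and -3.81 in kainate, while Ackr3 lies at 2.15 in SSSE and at 0.78 and 0.56 in the other models; the SSSE values chose these genes.

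Bmp1, the procollagen C-proteinase, was the gene that passed against both models in 1 direction. Its signals were 68.3, 76.6, 65.2, 66.1 and 102 in the controls and 45.5 to 148 at day 1, with a median of 65.2. Rat 1 was the day 1 rat above the controls, and 3 lay below them. Bmp1 differed by -0.07 ± 0.20 in SSSE, by 1.39 in kainate (gap -1.46, adjusted p = 1.76e-05) and by 0.76 in pilocarpine (gap -0.83, adjusted p = 0.0436). The other genes that differed from kainate are named because there were 4 of them. Nrtn, the growth factor neurturin, differed by 0.43 in SSSE and 2.38 in kainate (gap -1.96, adjusted p = 0.0151). Ptpn5, a striatal-enriched phosphatase, had 0.57 and 1.37 (gap -0.80, adjusted p = 0.0429), and Macrod1 had -1.0 and 0.06 (gap -1.06, adjusted p = 0.0429). Sorl1, a sorting receptor, had -0.06 in SSSE and -0.98 in kainate (gap 0.92, adjusted p = 0.0429). The number of genes that differed from kainate was 98 without SSSE day 1 rat 1 and between 1 and 9 without any other single rat, with 1 without day 1 rat 3, day 1 rat 4 or control rat 5.

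Against pilocarpine, 32 genes were relatively higher in SSSE (0.297%) and 39 lower. The genes given here were picked after their values were seen. Fam110c differed by 0.73 in SSSE and 3.65 in pilocarpine (gap -2.92, adjusted p = 0.0107), and in SSSE its signal was 139.5 in rat 5 and 13.8 or less in the other day 1 rats. Adamts9, a protease of matrix proteoglycans, had -0.63 and 1.67 (gap -2.29, adjusted p = 0.00957). B3galt5, a galactosyltransferase, had -0.69 and -2.83 (gap 2.14, adjusted p = 0.0107). Dipk2a had -0.38 and -2.28 (gap 1.90, adjusted p = 0.00255), and Palmd had 1.03 and 2.92 (gap -1.89, adjusted p = 0.0141). The count was 29 with rat 3 counted as a control. It was 158 without day 1 rat 1, 33 without rat 3, 30 without rat 4, and 38, 43 and 31 without control rats 2, 3 and 5. Without single day 1 rats of pilocarpine laboratory B it was 143 for rat 1 and for rat 2, and 45, 42 and 37 for rats 4, 5 and 6.

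Within the SSSE laboratory the later times share their controls with day 1, and the values stand side by side. Against control 338 genes passed at day 3 (3.14%) and 37 at day 10 (0.344%). The day 3 rats were not alike. Day 3 rat 4 scored 0.993 on the response slope, and the other day 3 rats 0.157 to 0.436. On the first principal component it lay at 33.3, and the others at -10.6 to 4.3. The day 3 means that follow include this rat. Trh differed by 4.34 at day 1, 2.27 at day 3 and 0.77 at day 10, Npy by 2.85, 1.68 and 0.50, and Plk5 by -3.81, -1.68 and -0.57. Ackr3 differed by 2.15, 1.85 and 2.25, Prss23 by 3.05, 3.01 and 2.17, and Igfbp5 by -2.27, -2.04 and -1.46. None of these 6 genes passed in the direct contrast of day 1 with day 3, where 65 genes did (0.604%), 22 of them higher at day 1 (0.204%). Among the 65, picked after their values were seen, Mmp9 had a day 1 minus day 3 difference of -1.31 (adjusted p = 0.0113) and P2ry12 one of -1.55 (adjusted p = 0.00738). Cpne9, a copine, had -1.25 (adjusted p = 0.000599) and Ntm -1.57 (adjusted p = 0.0441). Lmo2, a transcriptional adaptor, had 1.11 (adjusted p = 0.0391), with signals of 406 to 916 at day 1 and of 268 to 363 in the controls. The count of 65 moved widely with single rats. It was 712 without day 1 rat 6, 105 without rat 1, 9 without rat 3 or rat 5, and 8 without rat 2. Among the day 3 rats it was 41 without rat 2, 9 without rat 3, 66 without rat 4, 6 without rat 5 and 14 without rat 6. With day 1 rat 3 counted as a control it was 5.

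The spread among day 1 rats was largest for Trh, Npy, Lox, Plk5 and Plcxd3 among the genes that passed. Plcxd3, a phospholipase-like protein, ranged from 27.1 to 601 at day 1, with a median of 163, and rats 4 and 6 were within the control range of 22.8 to 34.9 (1.83 ± 0.57, adjusted p = 0.042). Some genes with the smallest p, picked after their values were seen, had day 1 rats that stayed together. C1ql1, a secreted C1q-like protein, had signals of 58.6, 57.0, 52.1, 35.7 and 36.4 in the controls and of 10.1 to 22.4 at day 1, with a median of 12.3. All rats, rats 4 and 6 included, were lower (-1.10 ± 0.11, adjusted p = 5.38e-05). Pals2, a scaffold protein of cell polarity, was at 467 to 594 in the controls and at 209.6 to 301 at day 1 (-0.95 ± 0.11, adjusted p = 7.56e-05). Mettl7a, a methyltransferase-like protein, was at 186 to 295 and at 50.8 to 108 (-1.67 ± 0.18, adjusted p = 6.65e-05), and Mgat5b, a glycosyltransferase, at 107 to 123 and at 39.9 to 70.1 (-0.88 ± 0.10, adjusted p = 7.56e-05). With rat 3 counted as a control these 4 genes passed too, with adjusted p of 0.0257 for C1ql1 and 0.0386 for Mgat5b.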

How the data were processed

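RNA of laser-captured dentate granule cells was measured on Affymetrix arrays, 1 to 2 per rat. The deposited values are linear probe set intensities, which the authors made with MAS5 (version not given), per the submitters' processing notes. Each deposited array had a trimmed mean (2% cut at each end) of 150.04 to 150.06, as measured on the values. No image files were used here, so the number of arrays, and not a count depth, limits the precision. Of 31099 probe sets, 20826 had 1 gene symbol in the platform annotation, 436 several and 9780 none, and 57 were controls; 20758 symbols were updated by RefSeq gene ID. Probe sets above their array's median in at least 6 of all rats were kept (14281), and the probe set with the highest mean was taken for each of 2678 genes with several, which left 10759 genes. Values were log2(intensity + 16) and repeat arrays were averaged.

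Limma 3.58.1 in R 4.3.3 fitted 1 mean per group to the 20 SSSE rats, or, for comparisons between models, to all SSSE, kainate and pilocarpine rats with both laboratories of a model weighted equally. Every adjusted p for a gene is limma's with Benjamini-Hochberg adjustment over 10759 genes, and the threshold was 0.05. Tested on simulated data for day 1 against control (10759 genes), the fit recovered 92% of changes of 1 on the log2 scale and 100% of changes of 2, with 12 false calls. The simulated noise was normal, independent between genes and of the same spread in each group, and every day 1 rat got the same change. The real day 1 rats differed widely in response, so these figures are not the rates of the real comparison. Genes named are the 12 largest rises and 12 largest falls with all 6 day 1 rats outside the control range, up to 3 leading members of each list, 7 genes named whatever their values (Prox1, Calb1, Gfap, Npy, Bdnf, Arc and Fos), genes that differ from both other models in 1 direction, and the 5 with the largest spread at day 1; others are marked as picked after their values were seen. The members and lists were chosen with earlier results of these data known. Alternatives changed the pseudocount, normalization, filter, probe set rule, arrays of rat 6, label of rat 3, samples fitted, array weights, an actin covariate, the rat number as a block, and left out each rat. Python 3.11.15, pandas 2.3.3 and matplotlib 3.10.9 were used for sequences and plots.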

Additional observations from a re-analysis of the deposited data

Results flagged for a closer look

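Single rats that stood far from the others of their group by Dixon's test were found in 25 of 234 groups of signals tested, each group being the 5 control or the 6 day 1 rats of 1 named gene. The test flags about 1 in 20 groups that are independent and not chosen by their values. Many of these genes were named for their values and all share the same rats, so that rate does not apply here. Each value is a signal, with the range of the other rats of the group in brackets. Control rat 5, which also had the highest actin 3' to 5' ratio of the SSSE controls, stood apart in 10 genes, with A2m 22.4 (32.5 to 36.5), Atp1b2 326.4 (704.7 to 881.9), Cdh13 1234.7 (665.6 to 754.6), Ddit4l 766.2 (528.2 to 582.5), Farp1 122.6 (86.9 to 92.6), Fat1 382 (615.3 to 741), Gdf10 256.3 (186.6 to 200.5), Igfbp5 76.7 (167.7 to 220.4), Inhba 81.6 (123 to 136.1) and Psmb3 394.4 (470.9 to 480.3). Day 1 rat 6 stood apart in 7, with Cdh13 630.4 (45 to 120.3), Crocc 55.2 (3.2 to 12.6), Fat1 308.9 (97.5 to 141.2), Ndrg2 949.3 (273.4 to 432.5), Nkain4 55.4 (2.5 to 5.9), Scn4b 161.4 (22.1 to 30.3) and Syt5 338.3 (474.9 to 563.6). In all 7 its value was the day 1 value nearest to the controls or within or beyond their range. Day 1 rat 5 stood apart in Arc and Fos, both immediate early genes, and in Fam110c, with Arc 2753.1 (33.7 to 71.3), Fos 2252.5 (15.4 to 67.6) and Fam110c 139.5 (0.7 to 13.8). Day 1 rat 1 stood apart in Klf10 1255.6 (484.1 to 670). Control rat 4, whose oligodendrocyte marker sum was the highest of the controls, stood apart in Bdnf 465.2 (718.1 to 838.9) and in the astrocyte connexin gene Gjb6 77.4 (35.8 to 42). Control rat 3 stood apart in Cox6c-ps1 19.5 (23 to 24.1) and Tubb6 2.9 (0.8 to 1.2), both near the bottom of the signal range.

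Day 1 differences that were not the same in SSSE and in another model, by a test of the gap itself, are given as SSSE minus the other model on the log2 scale. Of the 71 genes that passed against pilocarpine, only the named ones are given. They were Adamts9 -2.29, B3galt5 2.14, Bmp1 -0.83, Dipk2a 1.90, Fam110c -2.92, Lmo2 1.07 and Palmd -1.89. Against kainate they were Bmp1 -1.46, Macrod1 -1.06, Nrtn -1.96, Ptpn5 -0.80 and Sorl1 0.92. Laboratory and model cannot be told apart in any of them.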

How the results depend on the processing

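Day 1 against control gave 1349 genes, and 42 with rat 3 counted as a control, 763 with the 11 rats alone, 2402 with array weights and 400 with the actin ratio as a covariate. Leaving out single rats gave 783 to 2104. The comparison with kainate gave 5 genes, and 1 with log2(signal + 1), 2 with the repeat array of rat 6 and 1 to 98 without single rats. The comparison with pilocarpine gave 71, and 29 with rat 3 as a control and 30 to 158 without single rats. Day 1 against day 3 gave 65, and 37 with no filter, 5 with rat 3 as a control, 30 with the rat number as a block and 6 to 712 without single rats. The cause of these changes was not tested. Under the other alternatives run these counts stayed within 1.5 times. Of the 106 named genes that passed against control, none reversed under any alternative run, and 106 still passed without rat 6, 85 without rat 3, 79 with the 11 rats alone and 49 with the actin covariate. With rat 3 as a control, 13 still passed and the largest adjusted p (limma) was 0.48. With the mean of all kept probe sets of a gene, 103 still passed and the largest adjusted p (limma) was 0.668. Genes that had not passed changed sign, with Arc at -0.59 under array weights and -0.38 with the actin covariate, Fos at -0.44 under both, and Bdnf at -0.021 under array weights. Without single rats Arc ran from -0.77 (without day 1 rat 5) to 0.39 and Fos from -0.66 (without day 1 rat 5) to 0.58.

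With rat 3 as a control the actin ratio differed by -0.368 (exact permutation p = 0.136). Without single rats it differed by -0.577 to -0.271, the Gapdh ratio by -0.2 to -0.0562, the median signal by -1.73 to -0.7 and the correlation within the group by -0.0186 to -0.0126.

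Rat numbers recur in each group. Deviations of same-numbered control and day 1 rats correlated at 0.019, 0.071, -0.101, -0.101 and -0.0329 for numbers 1 to 5, and no number matched its own best. With 1 pair per number, these values cannot show whether same-numbered rats were housed or treated together. With the rat number as a block the counts were 1377 against control, 4 against kainate, 70 against pilocarpine and 30 for day 1 against day 3.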
